A study of Mus musculus with 2 samples.

Results

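Txnip and its relatives were examined in BV2 cells, an immortalized mouse microglial line, after culture in DMEM/F12 or in DMEM. The 9 genes were chosen by name from 19938 genes with their own transcript cluster, and they comprise the 6 alpha-arrestin genes (Txnip and Arrdc1 to Arrdc5) and 3 genes of the glucose-sensing regulators that control Txnip (Mlxip, Mlx and Mlxipl). The choice was made with the differences between the media known, so every difference given for these genes is a description and was not tested. In the DMEM/F12 group, cells plated in DMEM/F12 received fresh DMEM/F12 on the next day. In the DMEM group, cells plated in the same DMEM/F12 were moved to DMEM, which the methods call high glucose, so both groups had been in DMEM/F12 before. The methods put RNA extraction 1 day after this change of medium, while the sample labels give an incubation of over 1 day. How much glucose the DMEM/F12 held is not stated in the methods. Each group is 1 culture on 1 array, both media held fetal bovine serum and antibiotics, and a single cell line stands in for microglia. No medium was replicated, each difference compares these 2 arrays and not the media in general, and an effect of the medium cannot be told apart from a difference between the 2 cultures.

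Alpha-arrestins are adaptor proteins. They carry short proline-rich motifs that recruit ubiquitin ligases of the NEDD4 family to membrane proteins, which are then taken into the cell. Txnip, the thioredoxin-interacting protein, is the best known of them. It binds reduced thioredoxin and it also removes glucose transporters from the cell surface. Transcription of Txnip follows the glucose supply. MondoA (encoded by Mlxip) and ChREBP (Mlxipl) enter the nucleus when glucose 6-phosphate accumulates and bind, each with the partner Mlx, to the carbohydrate response element. This element is a pair of cores that resemble CACGTG, with 5 bases between them. Arrdc4 is another known target of MondoA.

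Because the element sits near the start of the gene, the promoter of Txnip is shown first, followed by that of Arrdc4, the relative that was also higher in DMEM/F12. The sequences are from RefSeq, build GRCm38.p6, and positions count back from the annotated start. The Txnip stretch is chr3:96557812-96557931 on the plus strand and the Arrdc4 stretch is chr7:68749284-68749488 on the minus strand. Capitals mark matches on either strand to CACGNG (a core of the element), CCAAT (the box bound by NF-Y) and GTAAACA (a motif of FOXO factors).
Txnip: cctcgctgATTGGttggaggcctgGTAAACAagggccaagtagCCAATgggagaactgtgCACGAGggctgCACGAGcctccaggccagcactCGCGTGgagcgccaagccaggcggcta
Arrdc4: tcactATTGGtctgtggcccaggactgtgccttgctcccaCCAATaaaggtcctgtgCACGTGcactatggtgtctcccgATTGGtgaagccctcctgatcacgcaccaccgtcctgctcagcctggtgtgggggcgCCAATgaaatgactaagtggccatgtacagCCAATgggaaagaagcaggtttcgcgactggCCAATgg

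In the Txnip promoter the cores at -85 and -74 lie on 1 strand with exactly 5 bases between them (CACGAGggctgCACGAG, chr3:96557872-96557888). Windows of 300 bases, 250 before the start and 50 from it on, were searched for all 27025 genes of the RefSeq table. Such a pair of CACGNG on 1 strand was found in 15 genes, or 0.0555%, and Txnip was the only one of the 9 genes to hold it. No window of the 9 genes held CACGNG followed after 5 bases by CNCGTG, which 0.0518% of genes have. A single CACGNG was common, in 30.3% of all genes and in 6 of the 9 (Txnip, Arrdc1, Arrdc2, Arrdc4, Mlx and Mlxipl), and every CACGTG is also counted as one. The full E-box CACGTG stood in 8.09% of all genes and in Arrdc4 at -193, Mlx at -40 and Mlxipl at -98. GTAAACA was found in 4.05% of all genes and, among the 9, in Txnip at -121. CCAAT was found in 41.1% of all genes and in every gene of the 9 except Arrdc1. The Arrdc4 window held 6 of these boxes, and 24 genes (0.0888% of all) had a window with at least as many. TATAAA, found in 15.7% of all genes, was in none of the 9. A match to these letters is a description of the sequence and does not show binding in BV2 cells. Only exact matches inside the windows were counted. A gene without the pair, such as Arrdc4, may therefore hold an element with other letters or one outside its window.

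**Figure D1:**
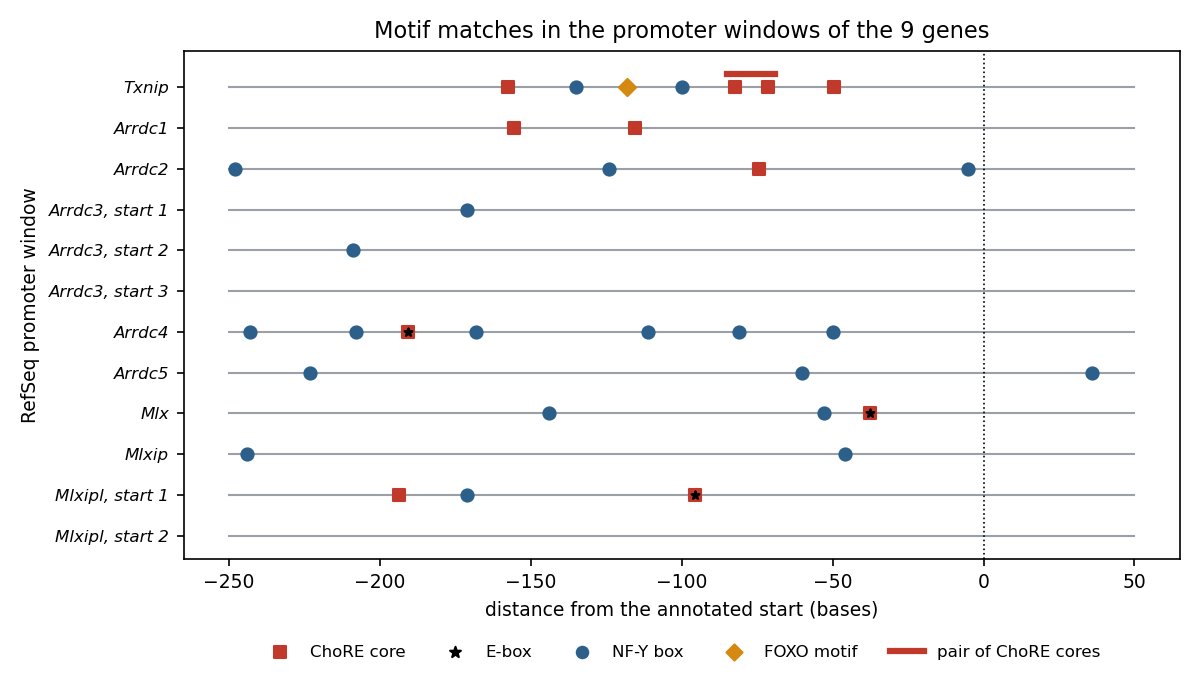
Motif matches (symbols) in each RefSeq promoter window of the 9 genes (y axis; genes with several annotated starts have several rows) by distance from the start in bases (x axis, dotted line at the start). The bar over the Txnip row marks its pair of cores at -85 to -69, the row of Arrdc4 holds 6 NF-Y boxes (CCAAT), and stars inside squares mark E-boxes, which are also counted as cores (squares).

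Of the 9 genes, Txnip and Arrdc4 were higher in DMEM/F12, and the other 7 stayed within 1.13-fold of their values in DMEM. The values are the deposited log2 expression values of the arrays, and each gene was measured by 1 cluster. A gene was counted as differing at 1.5-fold or more, a log2 difference of 0.58. At this threshold 2 of the 9 genes were higher, where 185 of all 19938 genes (0.928%) were, and 0 of the 9 were lower, where 145 (0.727%) were. Among the 13225 genes above background on at least 1 array the shares were 0.786% higher and 0.635% lower. Neither Txnip nor Arrdc4 was 2-fold different, a size reached by 0.0602% of all genes upward and by 0.0251% downward. A level on these arrays cannot tell a change in RNA per cell from a change in how many cells express the gene.

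Txnip (cluster 10494428) stood at 10.01 in DMEM/F12, against 9.08 in DMEM, on the log2 scale. The difference of 0.93 is 1.91-fold, and both values lay far above background (by 5.84 in DMEM/F12 and 4.93 in DMEM on the log2 scale). Background was set per array from 1248 clusters of odour, pheromone and taste receptor genes, as their 95th percentile, at 4.17 in DMEM/F12 and 4.15 in DMEM. Of all genes Txnip had the 14th highest difference, and the 10th highest among genes above background. Genes of similar signal mostly differed less between the arrays. The 1000 genes nearest to Txnip in mean log2 value had differences with an SD of 0.20, and only Cybb, which encodes an NADPH oxidase subunit of phagocytes, had a larger difference than Txnip, with 10.66 in DMEM/F12 and 9.58 in DMEM. This SD is a spread between genes on these 2 arrays and not a replicate error.

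Arrdc4 (cluster 10564507) encodes an alpha-arrestin that, like Txnip, lowers glucose uptake. Its log2 value was 7.48 in DMEM/F12, against 6.74 in DMEM, a difference of 0.74 or 1.67-fold. This was the 57th highest difference of all genes and the 35th highest among those above background. Among the 1000 genes nearest to Arrdc4 in signal the SD of the differences was 0.21, and the genes with larger ones were Nfkbia (1.03), the inhibitor of NF-κB, and Slc7a11 (0.81), a cystine transporter.

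The other alpha-arrestins had similar values on the 2 arrays. Arrdc1, which drives the budding of small vesicles from the cell surface, had 7.03 in DMEM/F12 and 6.91 in DMEM (difference 0.12). Arrdc2 had 5.49 in DMEM/F12 and 5.51 in DMEM (-0.02). Arrdc3, which binds adrenergic receptors and directs their trafficking, had 4.65 in DMEM/F12 and 4.76 in DMEM (-0.11), less than 0.7 above background on either array. All 3 of these differences were smaller than the SD of 0.21 among the 1000 genes nearest in signal. Arrdc5 had 3.02 in DMEM/F12 and 3.20 in DMEM. Both values were below background, so its difference of -0.18 has no direction that can be read, and Arrdc5 was the one gene of the 9 not above background. Over the 5 alpha-arrestins above background the median difference was 0.12, and it was 0.05 with Arrdc5 included, against 0.00 over all genes.

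The 3 regulators differed by at most 1.10-fold. Mlxip, which encodes MondoA, had 8.41 in DMEM/F12 and 8.27 in DMEM (0.14). Mlx had 8.55 in DMEM/F12 and 8.60 in DMEM (-0.05). Mlxipl, which encodes ChREBP, had 5.02 in DMEM/F12 and 5.03 in DMEM (-0.01), at less than 0.9 above background. These values are of mRNA only, while MondoA and ChREBP are known to be controlled largely by their movement into the nucleus, which arrays do not measure.

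**Figure D2:**
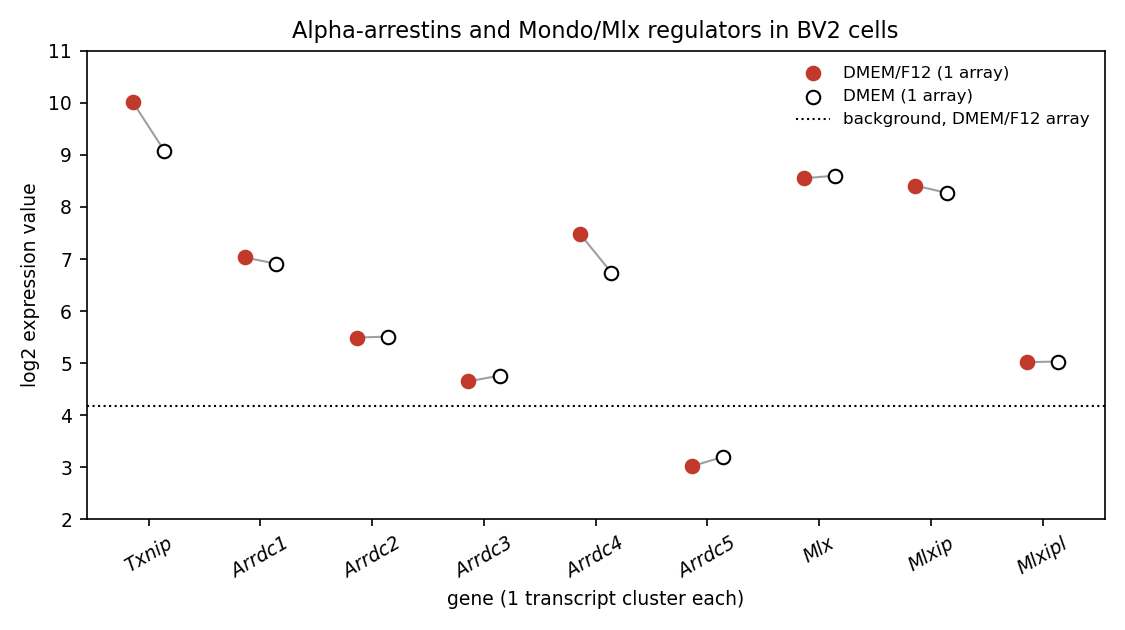
Log2 expression values (y axis) of the 9 genes (x axis) in DMEM/F12 (red) and in DMEM (open), 1 array each, where gray lines link both values of 1 gene, and a dotted line at the background of the DMEM/F12 array (4.17; 4.15 in DMEM). The lines of Txnip (10.01 and 9.08) and Arrdc4 (7.48 and 6.74) are steep, the others are nearly flat, and Arrdc5 lies below background in both media.

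**Figure D3:**
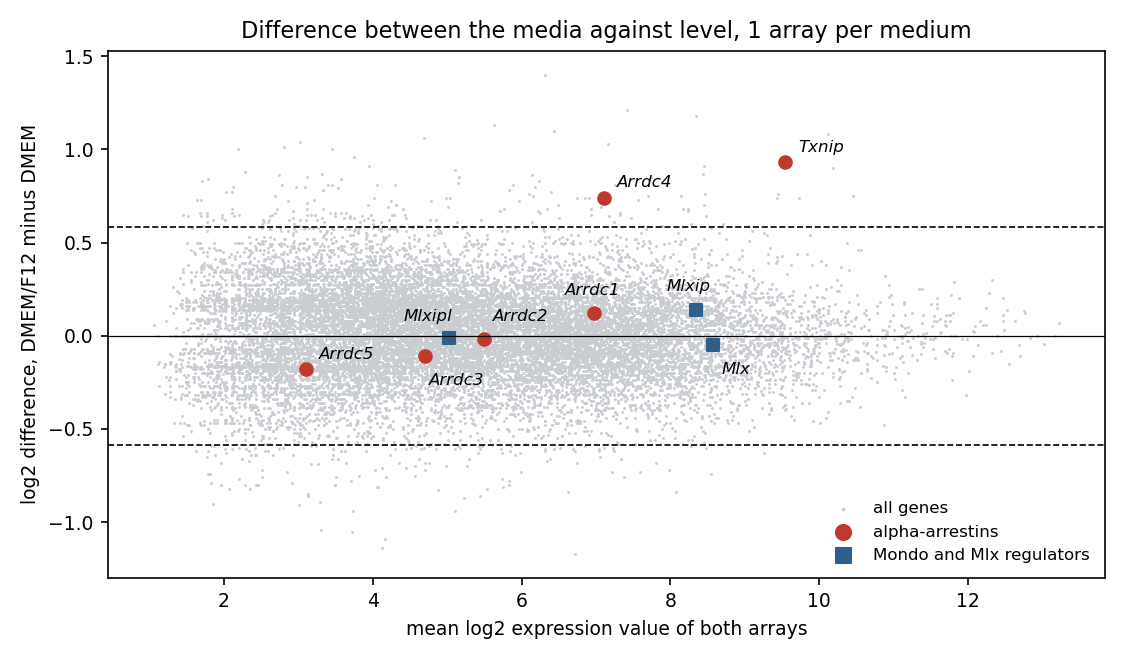
Difference in log2 value, DMEM/F12 minus DMEM (y axis), against the mean log2 value of both arrays (x axis), with a gray dot for each of the 19938 genes, red circles for alpha-arrestins, blue squares for Mondo and Mlx regulators, and dashed lines at 1.5-fold. Txnip (0.93) and Arrdc4 (0.74) lie above the upper line and the other 7 genes between the lines.

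Genes around these 9 were then compared, to see where other parts of the pathway stood beside Txnip and Arrdc4. Other glucose-responsive targets of ChREBP and MondoA lay on both sides of 0. Of 20 genes listed 19 were measured and 16 were above background, and in DMEM/F12 the 19 split into 8 higher and 11 lower. Their median was -0.10, while over all genes it was 0.00, with 47.2% higher and 45.5% lower. In this list 0 of 19 genes reached 1.5-fold, and with 0.928% of all genes higher and 0.727% lower at that size, a count of 0 in this or any list of similar length below is no result about the list. Klf10, a transcriptional repressor, had 6.56 in DMEM/F12 and 6.16 in DMEM (0.40), the largest difference of the list. Elovl6, a fatty acid elongase, had 7.08 in DMEM/F12 and 7.32 in DMEM (-0.24). The partners and rivals of Mlx in the MAX network, which also bind CACGTG, had a median of -0.02 over 10 genes (5 higher, 5 lower). Max itself had 8.74 in DMEM/F12 and 8.97 in DMEM (-0.23), and Mnt, a repressor that can dimerize with Mlx, had 7.13 in DMEM/F12 and 6.94 in DMEM (0.19). Myc had 4.67 in DMEM/F12 and 3.97 in DMEM (0.70), but its DMEM value was below background.

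Thioredoxin, the protein that Txnip binds, is encoded by Txn1. Txn1 had 12.83 in DMEM/F12 and 12.84 in DMEM (-0.01). The gene of its reductase, Txnrd1, had 7.60 in DMEM/F12 and 7.28 in DMEM (0.32), and Txnl1, a thioredoxin-like protein, had 6.99 in DMEM/F12 and 7.33 in DMEM (-0.34). Of the thioredoxin system 11 of 13 genes were measured, 3 were higher and 8 lower, and the median was -0.09. Among clients and partners of alpha-arrestins (7 of 9 genes measured, median 0.00), Slc2a1, the glucose transporter that Txnip removes from the surface, had 9.75 in DMEM/F12 and 9.87 in DMEM (-0.12). Nlrp3, the inflammasome sensor that Txnip can bind, had 5.29 in DMEM/F12 and 5.14 in DMEM (0.15). The muscle and fat glucose transporter Slc2a4 had 5.14 in DMEM/F12 and 4.84 in DMEM (0.30), and Ddit4, a stress-induced inhibitor of mTOR signalling, had 6.36 in DMEM/F12 and 6.55 in DMEM (-0.19).

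The ligases that alpha-arrestins recruit and their adaptors had a median of 0.07 over 11 genes (6 higher, 5 lower). Wwp1 differed most, with 8.49 in DMEM/F12 and 8.14 in DMEM (0.35), and Hecw2 had 3.96 in DMEM/F12, which is below background, and 4.23 in DMEM (-0.27). The ESCRT genes that serve vesicle budding with Arrdc1 had a median of 0.04 over 10 genes, with Vps37a at 0.28 and Mvb12a at 0.22. The structural relatives of alpha-arrestins, which are the visual and beta-arrestins and the VPS26 subunits of endosomal sorting complexes, had a median of -0.14 over 7 genes (2 higher, 5 lower), with Vps26c at -0.19 and Vps26a at -0.18.

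Of 11 listed factors that are known to act on the Txnip promoter or on Txnip protein, 10 were measured, with a median of 0.07. At 1.5-fold or more, 1 of these 10 was higher and 1 lower, against 0.928% and 0.727% of all genes. Cell type markers aside, the only other gene of the lists around the 9 at that size was Myc, 1 of 10 in its list. Counts this small in lists of this length are no result about the lists. Nfyb, the B subunit of NF-Y, which binds CCAAT, had 4.37 in DMEM/F12 and 5.05 in DMEM (-0.68). Its DMEM/F12 value was close to the background of that array (4.17), which limits how far this difference can be read. The other NF-Y subunits lay on both sides of 0, with Nfya at 8.52 in DMEM/F12 and 8.28 in DMEM (0.24) and Nfyc at 6.54 in DMEM/F12 and 6.88 in DMEM (-0.34). Prkaa2, a catalytic subunit of the energy sensor AMPK, which marks Txnip for degradation, had 7.65 in DMEM/F12 and 7.00 in DMEM (0.65). Prkaa1, the other catalytic subunit, had 8.65 in DMEM/F12 and 8.58 in DMEM (0.07). Known FOXO targets, looked at because the Txnip promoter holds the FOXO motif, had a median of -0.11 over 14 genes (6 higher, 8 lower), with Pik3ip1 at 0.36 and Trim63 at 0.32. Glucocorticoid-induced genes, a class to which Txnip belongs in several tissues, had a median of -0.07 over 8 genes, with Tsc22d3 at -0.44 and Zbtb16 at -0.31.

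**Figure D4:**
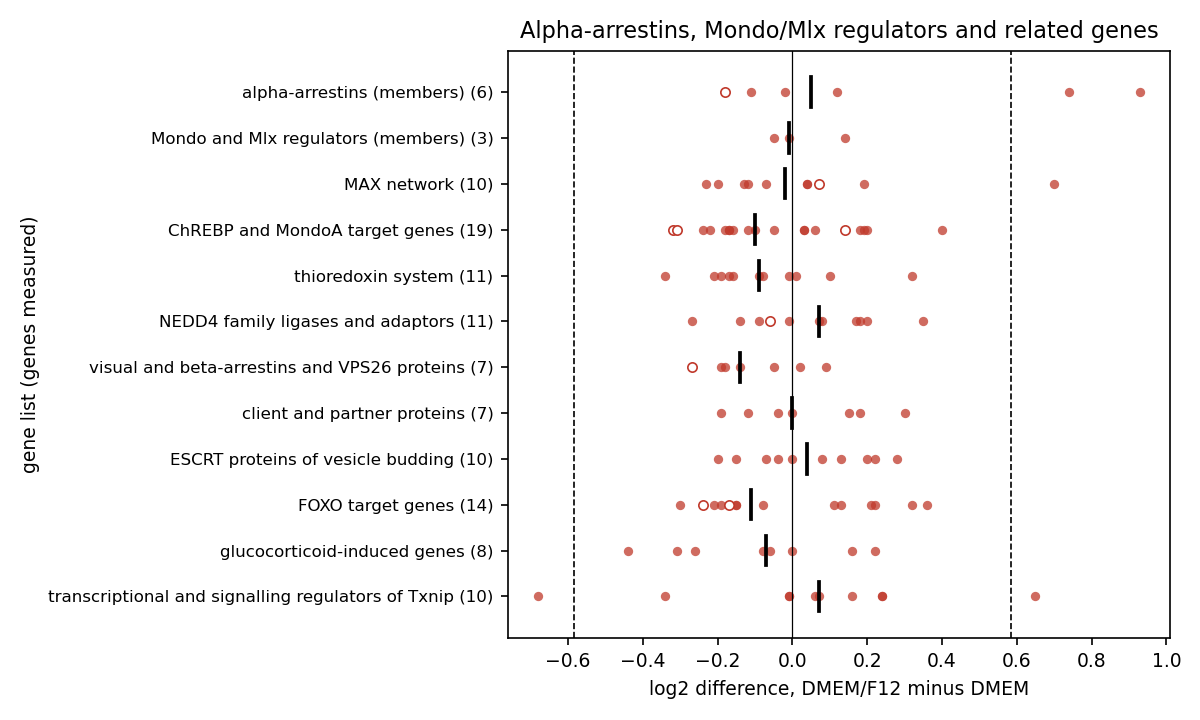
Difference in log2 value, DMEM/F12 minus DMEM (x axis), for every gene of the lists named on the y axis (number of genes measured in parentheses). Filled dots are genes above background on at least 1 array, open dots are genes below it on both, black bars are list medians, and dashed lines mark 1.5-fold; outside the lines lie Txnip, Arrdc4, Myc (0.70) and Prkaa2 (0.65) on the right and Nfyb (-0.68) on the left.

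To find genes with array values near those of Txnip, genes were ordered by the distance between their pair of log2 values and that of Txnip, over 2 arrays and 12404 named genes above background. The nearest were Cst7 (distance 0.18), which encodes an inhibitor of lysosomal cysteine proteases, catalase (Cat, 0.21), Rasgrp3 (0.29), an activator of Ras, Insig1 (0.36), a sterol-sensing protein of the endoplasmic reticulum, and Gstp1 (0.40), a glutathione transferase. Cst7 had 9.83 in DMEM/F12 and 9.07 in DMEM (difference 0.76), Cat had 9.80 in DMEM/F12 and 9.06 in DMEM (0.74), and Rasgrp3 had 10.10 in DMEM/F12 and 9.36 in DMEM (0.74). Insig1 had 9.72 in DMEM/F12 and 9.29 in DMEM (0.43), and Gstp1 had 9.64 in DMEM/F12 and 9.22 in DMEM (0.42). Gstp1 has a near-identical copy in the mouse genome that its probes may also measure. This order goes by signal as well as by difference, and the signal of a cluster depends on its probes, so a near pair of values means neither equal amounts of RNA nor a difference as large as that of Txnip (0.93).

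The quartiles of the 2 arrays over 28944 clusters were nearly equal (3.31 and 6.66 in DMEM/F12, 3.30 and 6.67 in DMEM), and the differences of all genes had an SD of 0.23. Of 12 microglia and macrophage markers 10 were above background, among them Trem2 (0.40 higher in DMEM/F12) and Tmem119 (-0.66), while Aif1 and P2ry12 were below it on both arrays. The marker list had a median difference of 0.01. Of the markers of other brain cell types, 0 of 5 for astrocytes, 1 of 5 for neurons, 3 of 4 for oligodendrocytes and 1 of 4 for endothelial cells were above background, at log2 values of at most 5.22 in DMEM/F12 and 5.10 in DMEM.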

How the data were processed

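RNA of BV2 cells was measured on Mouse Gene ST arrays of Affymetrix, 1 for each medium. The deposited table holds a log2 value per array for 28944 clusters, which the authors obtained with the Affymetrix Expression Console and the Transcriptome Analysis Console. The sources used here name no versions and no genome build, and do not say how probes were summarized or arrays normalized. The values were used without further scaling, and differences are DMEM/F12 minus DMEM. The platform annotation gave 21789 clusters exactly 1 symbol, 1621 several and 5534 none. Only the first were used, averaged per gene (19938 genes). All 9 genes and the gene lists were chosen with earlier results of these data known. Besides the 9, the text names the 2 genes above background with the largest absolute difference in each list, some fixed genes (Txn1, Txnrd1, Max, Myc, Mnt, Slc2a1, Nlrp3) and the 5 genes nearest to Txnip, while the markers of other cell types were only counted. Cybb, Nfkbia, Slc7a11, Nfya, Nfyc, Prkaa1, Aif1 and P2ry12 were named after their values were seen. With 1 array per medium nothing was tested and no p-value is printed, and the number of arrays limits the precision. Motifs were searched in 32851 RefSeq windows (GRCm38.p6), 12 of them of these genes. The planned comparison of protein sequences was not run. Alternatives were 3 other scalings (median centring, quantile normalization, a loess curve with span 0.3), a floor at background, only genes above it, the brightest cluster, a 2-fold threshold and a shorter window. Only the count of genes past a fold was run on simulated data, with planted 2-fold differences and a smaller spread than on these arrays. Those settings made recovery nearly certain, and the motif search, the background and the gene lists were not checked in this way. Python 3.11.15, numpy 2.4.6, pandas 2.3.3, statsmodels 0.14.6 and matplotlib 3.10.9 were used.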

Additional observations from a re-analysis of the deposited data

How the results depend on the processing

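No paired analysis was possible because only 1 array represents either medium. A shift above 0.1 in a log2 value, or above 1.5 times in a count or share, is given here as a move. Centring on the median, quantile normalization and the loess curve moved none of the results, with Txnip between 0.91 and 0.95, Arrdc4 between 0.72 and 0.76, and 166 to 185 genes higher and 145 to 168 lower at 1.5-fold. The brightest cluster per gene and the shorter promoter window moved none either, and each of the 9 genes has only 1 cluster. Raising values below background to it gave Arrdc5 0.02, the ChREBP and MondoA targets a median of 0.02 and the FOXO targets 0.02, with 81 genes higher and 70 lower. With only genes above background the FOXO targets had 0.01, and 104 genes were higher and 84 lower. These counts fell mainly because fewer genes were counted. The shares, 0.786% higher and 0.635% lower, did not move from 0.928% and 0.727%. At 2-fold 12 genes were higher and 5 lower, and 0 of the 9 genes were higher in place of 2. Signal over background limits Arrdc5 most, and Arrdc3 and Mlxipl next.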

Other observations

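The genes whose promoter window holds the same kind of pair of cores as Txnip, 2 copies of CACGNG on 1 strand with 5 bases between them, were looked up after the values were seen. Of 15 such genes, 9 besides Txnip were measured, 8 of them above background. The median difference was 0.22, against 0.00 over the 15545 genes without the pair. The range was -0.36 to 0.53, with 5 higher and 4 lower in DMEM/F12. The median and the 5 higher genes include Stpg4, which was below background on both arrays (3.08 in DMEM/F12, 2.77 in DMEM, difference 0.31). None of the 9 reached 1.5-fold, which 0.894% of the genes without the pair did upward and 0.759% downward. A count of 0 in 9 genes is no result about them. The 9 measured genes with CACGNG and then after 5 bases CNCGTG had a median of -0.02 (3 higher, 5 lower). Among the genes with the pair on 1 strand, the highest besides Txnip was Nfkb2, a subunit of NF-κB, with 7.34 in DMEM/F12 and 6.81 in DMEM. Fnip1, a partner of folliculin in nutrient sensing, had 7.79 in DMEM/F12 and 7.45 in DMEM, and Fem1b, a substrate receptor of a ubiquitin ligase, had 8.45 in DMEM/F12 and 8.13 in DMEM. The lowest with the pair on 1 strand was A430005L14Rik, with 5.83 in DMEM/F12 and 6.19 in DMEM. The rest above background were Man2b2 (0.22), Rbbp4 (-0.01), Irak1bp1 (-0.02) and Tdrd9 (-0.14).

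Genes with an E-box (CACGTG) in the window, as Arrdc4 has, form a wider class. Besides the 9 genes examined, 1478 measured genes had one. Of these, 9 (0.609%) were at least 1.5-fold higher in DMEM/F12 and 14 (0.947%) at least 1.5-fold lower. The shares were 0.924% and 0.739% of the 14076 genes whose window has none. Among 550 genes that hold the FOXO motif GTAAACA, which Txnip has, 7 (1.27%) were higher and 2 (0.364%) lower. Of 15004 genes without it, 0.88% were higher and 0.773% lower. The counts with either motif are too small for a direction to be read from them. For CACGNG the shares were 0.595% higher and 0.682% lower among 5719 genes with it, against 1.07% and 0.803% of 9835 genes without. For CCAAT they were 0.832% higher and 0.910% lower among 6487 genes with it, against 0.937% and 0.651% of 9067 genes without. TATAAA, which none of the 9 genes has, came with 1.84% higher and 0.943% lower among 2121 genes, against 0.744% and 0.730% of 13433 genes without. The median difference was 0.00 in each of these classes. These shares are descriptions of 2 arrays and were not tested.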
